A study of Mus musculus with 4 samples.

Results

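The circadian clock genes described here are the core clock and output genes Arntl, Clock, Per1, Per2, Per3, Cry1, Cry2, Nr1d1, Nr1d2 and Dbp. They were found by symbol, and all 10 were listed among the 22328 genes of both deposited count tables. The samples were 4 poly(A)-selected mouse RNA libraries, 1 per group, so the differences below were not checked in replicates and the conditions could not be tested. F1m-GCS is hippocampus of offspring whose dams ate 5 g/kg choline chloride from embryonic day 9 to birth, and F1m-CON is hippocampus of offspring whose dams ate 1.1 g/kg. Offspring of both groups had a basal diet after birth, and their behaviour was tested at 2 months of age. HT22 SUP and HT22 CON are cultures of HT22, an immortalised mouse hippocampal neuronal line, kept for 48 h with 70 µM choline chloride in SUP and 5 µM in CON, in high-glucose medium with serum. The sources used here do not give the strain, the number of animals behind a hippocampus library or the hour at which tissue or cells were collected.

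The mammalian clock is a loop of transcription that runs in most cells with a period of about a day. The proteins of Arntl (also called BMAL1) and Clock bind E-boxes as a dimer and drive the Per and Cry genes, whose products return to the nucleus and block that dimer. Nr1d1 and Nr1d2 encode REV-ERB nuclear receptors, which repress Arntl, and Dbp encodes a transcription factor that carries the rhythm to output genes through D-boxes. In most rodent tissues the messages of Per, Nr1d1 and Dbp peak at times of day when that of Arntl is low, so the hour of collection bears on each of them. That hour cannot be told apart from diet or medium with 1 library per group.

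Of the 10 genes, 9 matched a promoter window in the RefSeq promoter table (build GRCm38.p6), running from 250 bases before to 50 bases after an annotated start. The following 5 are printed because they hold the motifs named above or belong to the genes with the highest and lowest hippocampus ratios. Capitals mark exact matches, on either strand, to 5 motifs: the E-box CACGTG, the E-prime box CACGTT, the cyclic AMP element TGACGTCA, the D-box TTATGTAA and the ROR element core AGGTCA. The windows are Per1 on the plus strand at chr11:69098699-69098998, Cry1 on the minus strand at chr10:85185005-85185304, Per3 on the minus strand at chr4:151044616-151044915, Clock on the minus strand at chr5:76304499-76304798 and Dbp on the plus strand at chr7:45704997-45705296. Each is read 5′ to 3′ on the strand of its gene.
Per1: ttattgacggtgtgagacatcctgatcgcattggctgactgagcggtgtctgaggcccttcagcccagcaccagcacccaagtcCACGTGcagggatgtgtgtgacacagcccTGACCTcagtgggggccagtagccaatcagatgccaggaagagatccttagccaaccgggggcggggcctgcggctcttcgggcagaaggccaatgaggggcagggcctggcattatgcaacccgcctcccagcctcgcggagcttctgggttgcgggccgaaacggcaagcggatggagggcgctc
Cry1: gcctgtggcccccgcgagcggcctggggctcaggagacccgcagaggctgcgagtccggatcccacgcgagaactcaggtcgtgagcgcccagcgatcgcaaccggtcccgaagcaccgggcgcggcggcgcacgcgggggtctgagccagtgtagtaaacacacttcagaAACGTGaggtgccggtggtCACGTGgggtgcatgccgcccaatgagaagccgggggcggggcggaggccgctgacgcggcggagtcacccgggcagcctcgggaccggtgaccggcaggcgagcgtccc
Per3: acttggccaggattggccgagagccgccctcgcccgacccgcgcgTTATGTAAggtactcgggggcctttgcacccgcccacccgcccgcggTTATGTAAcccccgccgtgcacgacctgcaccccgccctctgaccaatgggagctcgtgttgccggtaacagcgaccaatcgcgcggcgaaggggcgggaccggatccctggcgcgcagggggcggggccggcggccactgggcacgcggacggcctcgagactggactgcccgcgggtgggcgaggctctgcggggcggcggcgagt
Clock: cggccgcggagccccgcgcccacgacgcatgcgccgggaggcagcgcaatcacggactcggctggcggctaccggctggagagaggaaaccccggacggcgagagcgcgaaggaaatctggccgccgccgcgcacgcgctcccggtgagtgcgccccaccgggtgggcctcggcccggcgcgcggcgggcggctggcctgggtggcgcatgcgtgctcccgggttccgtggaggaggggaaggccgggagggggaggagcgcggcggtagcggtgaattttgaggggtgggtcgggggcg
Dbp: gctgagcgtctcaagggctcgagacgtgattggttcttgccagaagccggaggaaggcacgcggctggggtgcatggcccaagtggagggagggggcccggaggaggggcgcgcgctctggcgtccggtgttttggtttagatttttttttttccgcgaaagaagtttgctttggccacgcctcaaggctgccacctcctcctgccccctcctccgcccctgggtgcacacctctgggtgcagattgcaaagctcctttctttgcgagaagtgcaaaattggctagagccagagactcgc

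The Per1 window held an E-box whose first base lay at -166, counted from the start, and a ROR element core on the other strand. In Cry1 an E-box began at -60 and an E-prime box, on the other strand, at -79. Per3 held the D-box at -205 and again at -158. Among all 32851 windows of the table, 7.15% held the E-box, 4.68% the E-prime box, 1.79% the cyclic AMP element, 0.938% the D-box and 16.3% the ROR element core. Of the windows not printed, those of Cry2 and Nr1d1 held an E-prime box and that of Nr1d2 a ROR element core, as did a window at another annotated start of Arntl and of Clock. The printed Clock and Dbp windows held none of the 5 motifs, which says only that these letters are not in these windows. These matches describe letters and are not evidence of binding.

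Reads counted in genes numbered 30265820 in F1m-GCS, 31175015 in F1m-CON, 13192007 in HT22 SUP and 18305096 in HT22 CON. Of the uniquely mapped reads they made up 79.0% in F1m-GCS, 79.4% in F1m-CON, 63.1% in HT22 SUP and 72.9% in HT22 CON. All marker genes set down for hippocampus (5 of neurons, 4 of dentate granule cells, 3 of CA1 and 3 of CA3) had at least 50 reads in hippocampus. Among 6 markers of suprachiasmatic and hypothalamic neurons, Vip, also a gene of interneurons, had 604 reads in F1m-GCS and 590 in F1m-CON, and the other 5 had at most 20. All 5 markers of choroid plexus, an epithelium of the ventricles, lay below 0 in F1m-GCS over F1m-CON, against 51.2% of all measured genes, with a median log2 ratio of -0.52 and a range from -0.71 to -0.19. Their summed level was 2640 RPKM in F1m-GCS and 3059 RPKM in F1m-CON, and their part in the clock gene values was not tested. HT22 is labelled as a hippocampal neuron cell, yet the 5 neuron markers summed to 61.7 RPKM in HT22 SUP and 29.6 RPKM in HT22 CON, against 4186 in F1m-GCS and 4281 in F1m-CON. Of these, 4 were measured in HT22 cells and all 4 were at least 1.5-fold higher in SUP, against 5.13% of all measured genes. Stmn2, with 71 reads in SUP and 31 in CON, and Nefl, with 50 in SUP and 19 in CON, reached the minimum of 50 reads only in SUP. For them the minimum itself favoured a higher SUP value, which weakens the count of 4. Snap25, with 545 reads in SUP and 331 in CON, and Syt1, with 279 in SUP and 162 in CON, reached it in both. The part of the higher neuron markers in the HT22 clock gene values was not tested. The 4 dentate granule cell markers summed to 4 reads in HT22 SUP and 1 in HT22 CON.

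In hippocampus the 10 clock genes covered a range of levels that was nearly the same on both diets. Cry2, a photolyase-like repressor of the loop, was the highest, at 67.6 RPKM in F1m-GCS and 71.8 in F1m-CON. RPKM is the authors' read count per kilobase of coding length and 1e6 uniquely mapped reads, and it can be compared between genes. Whether reads outside the coding part were counted is not stated in the labels, which limits such comparisons. Dbp, Nr1d1 and Nr1d2 followed, at 41.8, 41.8 and 40.5 RPKM in F1m-GCS, where the 95% counting intervals of neighbours overlapped. In F1m-CON Dbp stood clear at 51.5 RPKM, above Nr1d1 at 40.6 and Nr1d2 at 39.2, which overlapped each other.

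The partners of the activating dimer lay in the middle of that order. Clock had 21.9 RPKM in F1m-GCS and 16.4 in F1m-CON, and Arntl 19.3 in F1m-GCS and 19.1 in F1m-CON. Clock was therefore the fifth of the 10 genes in F1m-GCS and the sixth in F1m-CON, where its interval met that of Per1. Per1 had 17.0 RPKM in F1m-GCS and 16.1 in F1m-CON, Per3 had 12.9 in F1m-GCS and 13.4 in F1m-CON, and Per2 had 8.71 in F1m-GCS and 8.33 in F1m-CON. Cry1 was the lowest, at 7.21 RPKM in F1m-GCS and 8.16 in F1m-CON, and in F1m-CON its interval overlapped that of Per2.

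**Figure D1:**
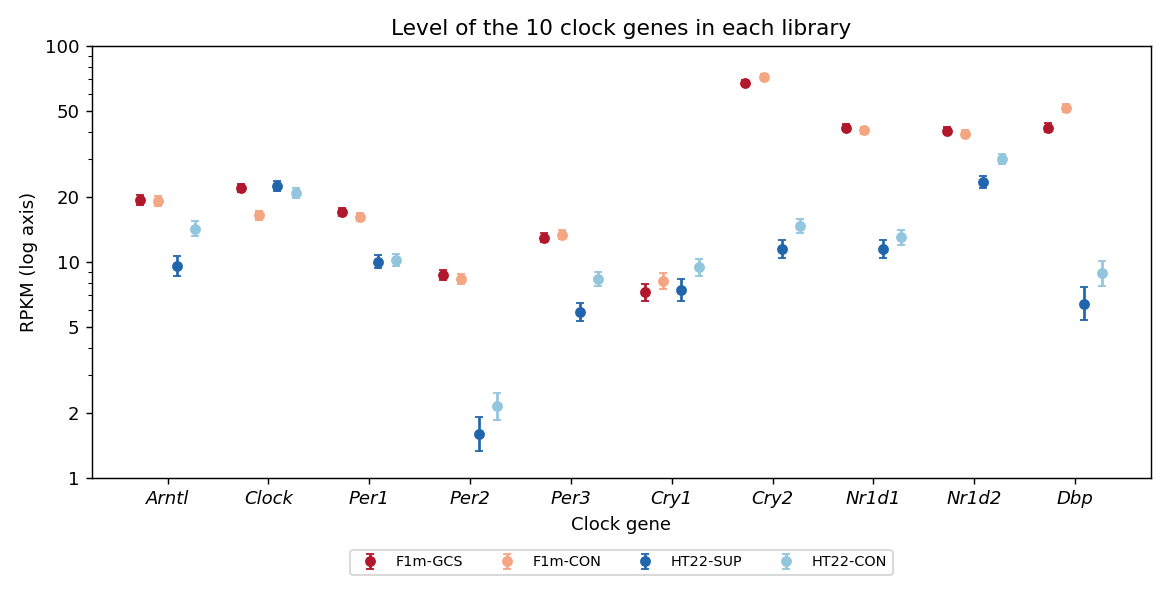
Level of each clock gene in RPKM, on a log axis, in the 4 libraries. Points are single libraries and bars are 95% Poisson counting intervals. Cry2 stands highest in hippocampus at 67.6 RPKM in F1m-GCS and 71.8 in F1m-CON, and Per2 lowest in HT22 cells at 1.60 RPKM in SUP and 2.14 in CON.

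The hippocampus comparison sets offspring of choline-supplemented dams against offspring of dams on the normal diet. Clock was the gene with the highest ratio and Dbp the one with the lowest, while the other 8 had log2 ratios from -0.16 to 0.10. No gene reached 1.5-fold in F1m-GCS over F1m-CON, against 2.7% of the 13392 measured genes (at least 50 reads in 1 of the libraries). At 1.2-fold with a counting interval that excluded 0, Clock was higher and Dbp lower, which is 20% of the 10 against 13% of all measured genes (8.51% higher and 4.47% lower). At any size, 4 of the 10 (Clock, Per1, Cry2 and Dbp) had an interval that excluded 0, against 39.7% of all measured genes. A count of 2 is too small to set the clock genes apart from that background. Their median log2 ratio was 0.05, and that of all measured genes was -0.0042.

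Among the activators, Clock encodes the helix-loop-helix partner of ARNTL and lies on chr5:76212177-76304548 (mm10, minus strand, ENSMUSG00000029238). It had 2151 reads in F1m-GCS, against 1654 in F1m-CON. The log2 ratio was 0.43 (95% counting interval 0.34 to 0.53), or 1.35-fold, at percentile 96.2 of measured genes. Arntl, on chr7:113207465-113314122 (plus strand, ENSMUSG00000055116), had 1387 reads in F1m-GCS and 1407 in F1m-CON, a log2 ratio of 0.03 (-0.07 to 0.14). The messages of the dimer partners thus differed in their ratios. Within a library, where scaling cancels, Clock reads per Arntl read numbered 1.55 in F1m-GCS and 1.18 in F1m-CON, a log2 difference of 0.40 (0.26 to 0.54). A trend of the ratios with gene length or GC content does not cancel in this way. Less the median of genes of like coding length and GC, Clock had 0.21 and Arntl 0.02.

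Among the repressors, the Per genes encode PAS-domain proteins that pair with the cryptochromes. Per1 (chr11:69095217-69109960, plus strand, ENSMUSG00000020893) had 2524 reads in F1m-GCS and 2449 in F1m-CON, a log2 ratio of 0.10 (0.02 to 0.18). Per2 (chr1:91415984-91459330, minus strand, ENSMUSG00000055866) had 1258 reads in F1m-GCS and 1233 in F1m-CON, with 0.08 (-0.03 to 0.20). Per3 (chr4:151003652-151044665, minus strand, ENSMUSG00000028957) had 1653 reads in F1m-GCS and 1754 in F1m-CON, with -0.03 (-0.13 to 0.07). The counting intervals of all 3 Per genes exclude a difference of 1.2-fold in either direction between these libraries.

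The cryptochromes lay slightly below 0. Cry1 (chr10:85131702-85185054, minus strand, ENSMUSG00000020038) had 503 reads in F1m-GCS and 583 in F1m-CON, a log2 ratio of -0.16 (-0.33 to 0.02). Cry2 (chr2:92403646-92434043, minus strand, ENSMUSG00000068742) had 4602 reads in F1m-GCS and 5012 in F1m-CON, with -0.07 (-0.13 to -0.01). The Cry2 interval excluded 0, but at 1.05-fold the size was small. Cry1 was the least counted of the 10 genes in hippocampus, and its interval does not exclude 1.2-fold lower.

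The REV-ERB genes were close to level. Nr1d1 (chr11:98767932-98775333, minus strand, ENSMUSG00000020889) had 2957 reads in F1m-GCS and 2948 in F1m-CON, a log2 ratio of 0.06 (-0.02 to 0.13). Nr1d2 (chr14:18204054-18239127, minus strand, ENSMUSG00000021775) had 2685 reads in F1m-GCS and 2662 in F1m-CON, with 0.07 (-0.01 to 0.14). In GENCODE M21 the exons of Nr1d1 share 263 bases with Thra, a thyroid hormone receptor gene on the opposite strand with 27465 reads in F1m-GCS and 29282 in F1m-CON. The library kit does not mark strand, so reads from those bases cannot be told apart.

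Dbp, the output gene, lies on chr7:45705088-45710155 (plus strand, ENSMUSG00000059824) and encodes a PAR-domain basic leucine zipper factor. It had 1567 reads in F1m-GCS, against 1976 in F1m-CON. The log2 ratio was -0.28 (-0.38 to -0.18), or 1.21-fold lower in F1m-GCS, at percentile 5.59 of measured genes. Dbp reads per Arntl read numbered 1.13 in F1m-GCS and 1.40 in F1m-CON, a log2 difference of -0.31 (-0.46 to -0.17). Its exons share 539 bases with Sphk2, a sphingosine kinase gene on the opposite strand, which had 1013 reads in F1m-GCS and 985 in F1m-CON and a log2 ratio of 0.09.

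Measured against Arntl within each library, the genes that usually peak opposite to it did not move to one side. The log2 differences were 0.06 (-0.07 to 0.20) for Per1, 0.05 (-0.11 to 0.21) for Per2 and -0.06 (-0.21 to 0.08) for Per3. They were 0.03 (-0.11 to 0.16) for Nr1d1 and 0.03 (-0.10 to 0.17) for Nr1d2. All 5 intervals held 0, and among these genes Dbp was the 1 whose interval did not. Measured against Clock in place of Arntl, all 9 other genes were lower in F1m-GCS, as follows from the ratio of Clock being the highest, with log2 differences from -0.71 for Dbp to -0.34 for Per1.

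Base composition differed between the genes with the highest and lowest ratios. The GC content of the longest coding transcript was lowest in Clock, at 40.9%, and highest in Dbp, at 61.6%. Across 13226 measured genes with a GC value the hippocampus ratio had a rank correlation of -0.26 with GC content, a description over genes of the same 2 libraries. The fifth of genes with the lowest GC had a median log2 ratio of 0.12, against -0.04 to 0.001 in the other 4. Per1, at 59.4% GC, had the second highest ratio, at 0.10. Less the median of genes of like coding length and GC, Per1 had 0.04 (-0.04 to 0.13). The fifth of genes with the highest GC had a median of -0.02, and Dbp had -0.28. Genes of like coding length and GC as Clock had a median of 0.22, and less that median the log2 ratio of Clock was 0.21 (0.12 to 0.31). Dbp had -0.23 (-0.32 to -0.13) after the same correction, and Nr1d2, with 41.8% GC, had -0.10 (-0.17 to -0.02). After it 0 of the 10 genes reached 1.2-fold, against 9.04% of all measured genes. The part of base composition in these ratios was not tested further.

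**Figure D2:**
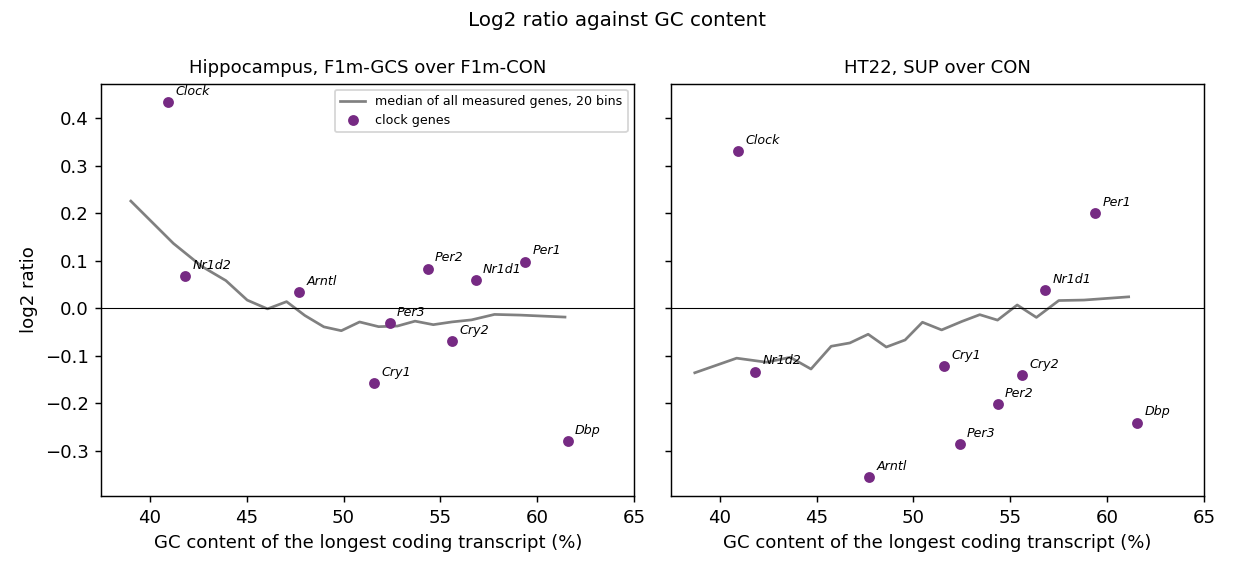
Log2 ratio of each clock gene (points) against the GC content of its longest coding transcript in percent, with the median of all measured genes in 20 equal bins of GC content (line), for F1m-GCS over F1m-CON and for HT22 SUP over CON. In hippocampus the line is highest at low GC, on the side where Clock lies at 40.9%, and in HT22 cells it runs the other way.

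In HT22 cells the comparison asks about choline in the medium. Clock was again the gene with the highest ratio, and Arntl now had the lowest, with Per3 next to it. No gene reached 1.5-fold in SUP over CON, against 8.02% of the 10854 measured genes. At 1.2-fold with an interval that excluded 0, Clock was higher and Arntl and Per3 were lower, which is 30% of the 10 against 30.4% of all measured genes (12.8% higher and 17.6% lower). At any size, 5 of the 10 (Clock, Per1, Arntl, Per3 and Nr1d2) had an interval that excluded 0, against 55.1%. Both shares of the clock genes lay near the background. Their median log2 ratio was -0.14, and that of all measured genes was -0.05.

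The partners of the dimer lay on opposite sides of 0. Clock had 1207 reads in HT22 SUP and 1343 in HT22 CON, a log2 ratio of 0.33 (0.22 to 0.44), or 1.26-fold after scaling for depth, at percentile 89.1. Arntl had 376 reads in SUP and 674 in CON, a log2 ratio of -0.36 (-0.54 to -0.17), or 1.28-fold lower, at percentile 11. Clock reads per Arntl read numbered 3.21 in SUP and 1.99 in CON, a log2 difference of 0.69 (0.47 to 0.91). This within-library difference had the same sign as in hippocampus, where the ratio of Arntl was 0.03.

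The Per genes did not move together in the cultures. Per1 had 812 reads in SUP and 989 in CON, a log2 ratio of 0.20 (0.06 to 0.34). By RPKM Per1 had 10.0 in SUP and 10.2 in CON, and Clock 22.5 in SUP and 20.8 in CON. RPKM is scaled to uniquely mapped reads and the ratio to reads in genes, so HT22 levels and ratios can differ in size and direction. Per2 had 126 reads in SUP and 203 in CON, with -0.20 (-0.54 to 0.12). Per3 had 409 reads in SUP and 698 in CON, with -0.29 (-0.47 to -0.11), or 1.22-fold lower. Per1 and Per2 have long coding sequences, and genes like them in length and GC had medians of 0.27 and 0.26 in this comparison. Less those medians Per1 had -0.07 (-0.20 to 0.07) and Per2 -0.46 (-0.80 to -0.14), so the sign of Per1 turned. After the same correction Clock had 0.44 (0.33 to 0.56), Per3 -0.33 (-0.51 to -0.16) and Arntl -0.24 (-0.42 to -0.05), the last of these below 1.2-fold. Clock, Per2 and Per3 were then the 3 genes past 1.2-fold, against 24.5% of all measured genes.

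The other HT22 ratios were smaller than 1.2-fold. Cry1 had 283 reads in SUP and 431 in CON, a log2 ratio of -0.12 (-0.34 to 0.10), and Cry2 had 426 in SUP and 657 in CON, with -0.14 (-0.32 to 0.04). Nr1d1 had 442 reads in SUP and 602 in CON, with 0.04 (-0.14 to 0.22). Nr1d2 had 849 reads in SUP and 1303 in CON, with -0.13 (-0.26 to -0.01), or 0.01 after the correction. Dbp had 131 reads in SUP and 217 in CON, with -0.24 (-0.57 to 0.08). The intervals of Dbp, Cry1 and Cry2 held 0 and did not exclude a ratio of 1.2-fold lower.

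**Figure D3:**
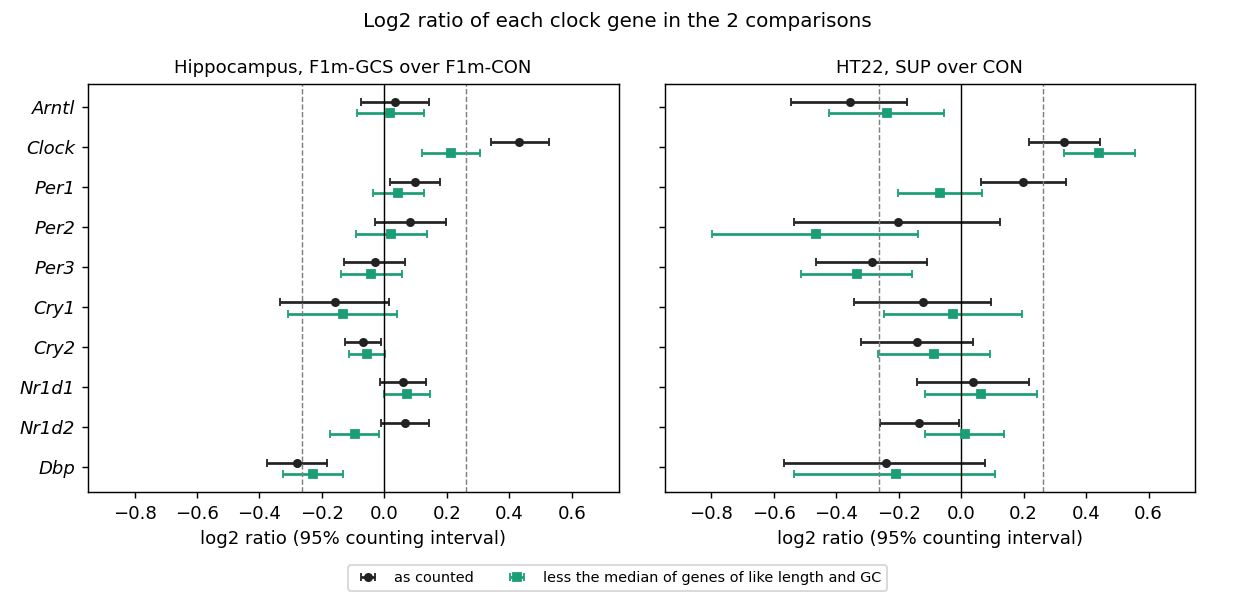
Log2 ratio of each clock gene, F1m-GCS over F1m-CON in hippocampus and SUP over CON in HT22 cells, with 95% counting intervals. Circles are the ratios as counted, squares the same ratios less the median of genes of like coding length and GC content, and dashed lines mark 1.2-fold. Clock lies right of 0 in both panels, at 0.43 in hippocampus and 0.33 in HT22 cells as counted.

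Arntl had the lowest HT22 ratio of the 10 genes, so each of the others lay above it within the libraries, whether or not it usually peaks opposite to Arntl. Relative to Arntl the log2 difference was 0.56 (0.33 to 0.79) for Per1 and 0.40 (0.14 to 0.66) for Nr1d1, and both intervals lay above 0. The values were 0.15 (-0.23 to 0.53) for Per2, 0.07 (-0.19 to 0.33) for Per3, 0.22 (-0.00053 to 0.45) for Nr1d2 and 0.11 (-0.26 to 0.49) for Dbp, and these intervals held 0. The cryptochromes had 0.24 (-0.05 to 0.52) for Cry1 and 0.22 (-0.04 to 0.48) for Cry2. Once length and GC were corrected for, Per2 at -0.46 and Per3 at -0.33 lay below Arntl at -0.24. The differences share the Arntl counts and are not independent of each other.

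Genes of high hippocampus and very low HT22 level stood higher in the SUP library, and this touches the cell line values. Over 644 such genes (at least 50 counts per 1e6 in hippocampus, and a level more than 100 times lower in HT22 cells) the HT22 sum came to 0.801% of the hippocampus sum in SUP and to 0.336% in CON. The same shares of the hippocampus level would make up 4.64% of the Dbp reads in SUP and 1.63% in CON, the highest of the 10 genes. For Clock they came to 0.543% in SUP and 0.284% in CON. Genes entered this class only at a level more than 100 times lower in HT22 cells, which keeps the shares small. Taking off those shares removes few reads and could hardly change a ratio. With those reads taken off, Clock had 0.33 (0.21 to 0.44), Arntl -0.37 (-0.56 to -0.19) and Per3 -0.30 (-0.48 to -0.12), and the same 3 genes were past 1.2-fold.

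The authors' deposited table gives Clock and Dbp as its 2 calls among the 10 genes in hippocampus, at edgeR log2 fold changes of 0.43 and -0.28 and false discovery rates of 3.2e-15 and 3.7e-06. It calls 14.2% of its genes. For HT22 cells the authors' deposited table calls 1 of the 10, Clock, at a log2 fold change of 0.16 and a false discovery rate of 0.047, against 9.55% of its genes. Its log2 fold change of Arntl is -0.24. Both HT22 values are smaller in size than the ratios of the deposited counts (0.33 and -0.36), for a cause that was not tested, and no replicate libraries stand behind any of these edgeR rates.

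Most of the clock genes stood higher in the tissue than in the cell line. Both hippocampus libraries had higher RPKM than both HT22 libraries for 8 of the 10 genes and lower for none, against 49.7% and 40.7% of the 14012 genes with at least 50 reads in any library. Dbp averaged 46.7 RPKM in hippocampus and 7.62 in HT22 cells, 6.12-fold higher in hippocampus. Cry2 averaged 69.7 RPKM in hippocampus and 13.1 in HT22 cells, 5.33-fold higher. Per2 averaged 8.52 RPKM in hippocampus and 1.87 in HT22 cells, 4.56-fold higher, and Nr1d1 41.2 RPKM in hippocampus and 12.2 in HT22 cells, 3.38-fold higher. Per3, Per1, Arntl and Nr1d2 were 1.86-fold, 1.64-fold, 1.61-fold and 1.49-fold higher in hippocampus. The median gene was 1.16-fold higher there on this scale.

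Clock and Cry1 had overlapping levels in tissue and line. Clock had 21.9 RPKM in F1m-GCS and 16.4 in F1m-CON, against 22.5 in HT22 SUP and 20.8 in HT22 CON. Cry1 had 7.21 RPKM in F1m-GCS and 8.16 in F1m-CON, against 7.44 in HT22 SUP and 9.42 in HT22 CON, and on TMM-scaled counts both hippocampus values were below both HT22 values. The balance between paralogs therefore differed with the source. Cry2 was 9.37 times the level of Cry1 in F1m-GCS and 8.80 times in F1m-CON, but 1.54 times in HT22 SUP and 1.56 times in HT22 CON. Per1 was 1.95 times the level of Per2 in F1m-GCS and 1.93 times in F1m-CON, but 6.27 times in HT22 SUP and 4.74 times in HT22 CON. Nr1d1 and Nr1d2 were near level in hippocampus, with ratios of 1.03 in F1m-GCS and 1.04 in F1m-CON, and Nr1d1 was the lower in HT22 cells, with ratios of 0.488 in SUP and 0.433 in CON. In bulk RNA, fewer cells that express a gene and less RNA per cell cannot be told apart.

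In HT22 cells Nr1d2 was the highest of the 10 genes, at 23.5 RPKM in SUP and 30.0 in CON, followed by Clock. In SUP their intervals overlapped, and in CON they did not. Below them Cry2, Nr1d1, Per1 and Arntl ran from 11.5 down to 9.56 RPKM in SUP, each overlapping its neighbour. In CON Cry2 had 14.7, Arntl 14.3, Nr1d1 13.0 and Per1 10.2 RPKM, so that Arntl stood above Per1, while its interval overlapped those of Cry2 and Nr1d1. Cry1, Dbp and Per3 overlapped each other in order from 7.44 to 5.86 RPKM in SUP and from 9.42 to 8.31 in CON, and Per2 was clear of all at 1.60 RPKM in SUP and 2.14 in CON.

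Beyond the 10 genes, a wider list of 29 genes that act with the clock was followed, and all 29 were measured in hippocampus. None reached 1.5-fold there, and 1 was higher by 1.2-fold, against 8.51% of all measured genes. That gene was Rora, an activator of Arntl through ROR elements, with 1179 reads in F1m-GCS and 912 in F1m-CON and a log2 ratio of 0.42 (0.30 to 0.55). Rora has 40.9% GC, like Clock, and had 0.31 once corrected for length and GC. The next farthest from 0 were Bhlhe41, a repressor of the loop, at -0.23 (-0.34 to -0.13), Id2, a helix-loop-helix inhibitor, at -0.19 (-0.26 to -0.12) and Timeless at -0.17 (-0.50 to 0.16). Of the 29 genes 19 lay below 0, against 51.2% of all measured genes, and the median was -0.04. The other PAR-domain factors, named after their values were seen, lay on the same side as Dbp, with Tef at -0.08 (-0.12 to -0.05) and Hlf at -0.13 (-0.18 to -0.07). Once corrected for length and GC, Tef had -0.02 and Hlf -0.08.

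In HT22 cells 21 of the 29 were measured, and 19 of these lay below 0, against 58.1% of all measured genes, with a median of -0.15 against -0.05 for all measured genes. Once corrected for length and GC, the median was -0.09, against 0 for all measured genes. Hlf, Noct, Btrc, Nono and Prkaa1 then lay above 0, at 0.01 to 0.08, and Gsk3b went from 0.16 to 0.32. Unless said otherwise, the ratios that follow are as counted. Bhlhe40, an E-box-driven repressor of the loop, was the 1 gene past 1.5-fold, against 2.89% of all measured genes lower by that much. It had 518 reads in SUP and 1275 in CON, a log2 ratio of -0.81 (-0.97 to -0.67). Past 1.2-fold as counted, 6 were lower and none higher, which is 6 of 21 against 17.6% of all measured genes. The other 5, named after their values were seen, were Wee1, a cell cycle kinase, at -0.46, Id2 at -0.45, Ciart at -0.42, Nfil3, a repressor at D-boxes, at -0.41, and Fbxw11 at -0.27. The gene above 0 by the most, as counted, was Sfpq at 0.24 (0.19 to 0.28). Once corrected for length and GC, Sfpq had 0.29 and Gsk3b 0.32, both past 1.2-fold in size. Timeless went from -0.12 to -0.38 and Fbxw11 from -0.27 to -0.15. The split of 6 lower and none higher therefore holds only as counted. Of the kinases that act on the PER proteins, Csnk1d had -0.11 (-0.17 to -0.04) and Csnk1e -0.21 (-0.32 to -0.10), both smaller than 1.2-fold. Among other kinase genes of the list, Csnk2a1 had -0.19 (-0.30 to -0.08), while Gsk3b lay above 0 at 0.16 (0.06 to 0.26).

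**Figure D4:**
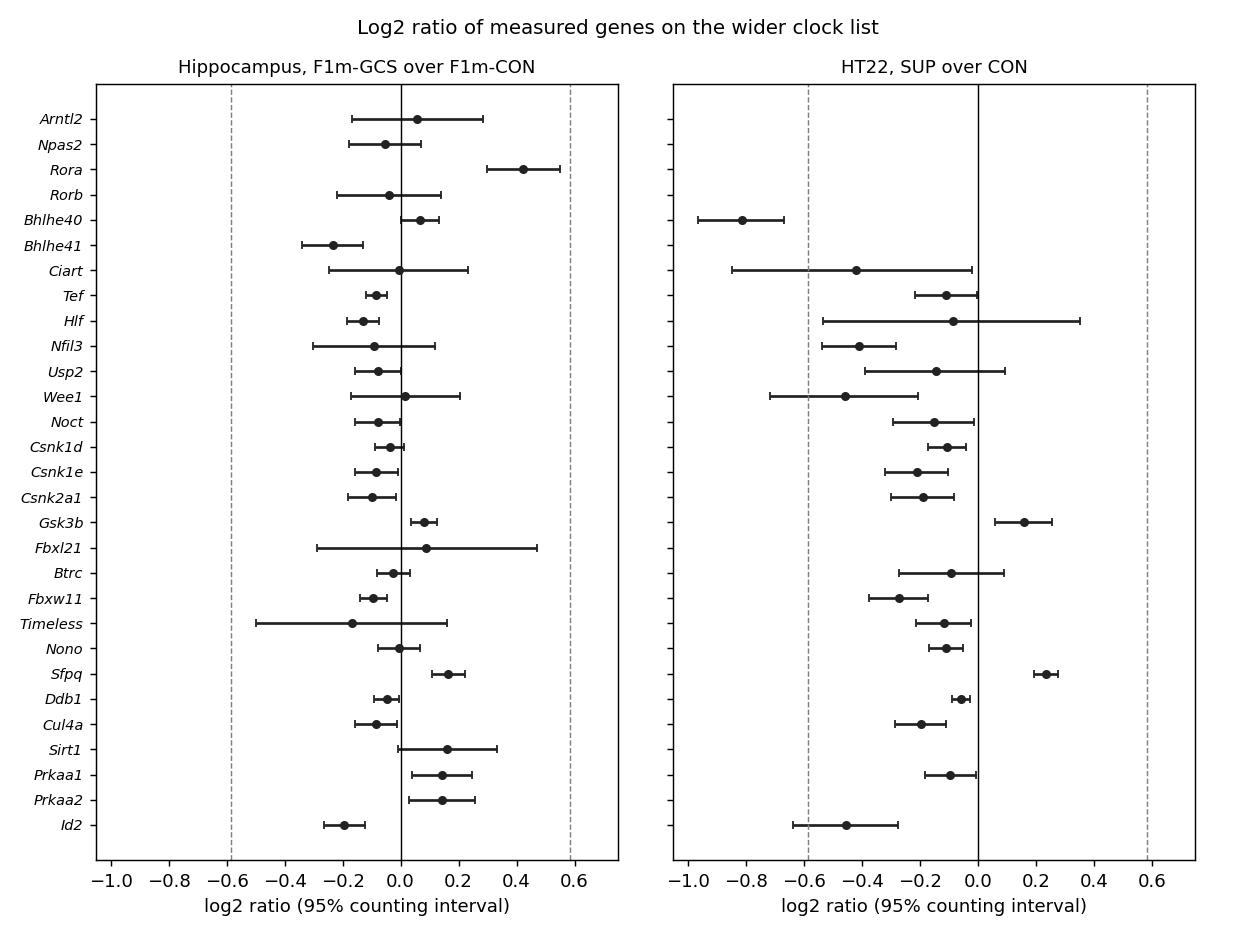
Log2 ratio of measured genes on the wider clock list, with 95% counting intervals, F1m-GCS over F1m-CON in hippocampus and SUP over CON in HT22 cells. Dashed lines mark 1.5-fold. Bhlhe40 in HT22 cells, at -0.81, is the 1 gene beyond them, and genes with no point in the HT22 panel had fewer than 50 reads.

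Per1 is also switched on by glucocorticoids and by neuronal activity, so genes with those inputs were set beside it. Of 5 genes that respond to glucocorticoids none was past 1.2-fold in hippocampus, against 13% of all measured genes, with a median of -0.11 and Fkbp5, a receptor co-chaperone, at -0.19 (-0.27 to -0.11). Of 6 genes that respond to activity 1 was, Fos, with 219 reads in F1m-GCS and 176 in F1m-CON and 0.37 (0.08 to 0.66), and the median was -0.05. In HT22 cells 3 of 4 measured glucocorticoid-responsive genes were lower by 1.2-fold, against 17.6% of all measured genes, and the median was -0.37, against -0.05. Among them was Ddit4 at -0.71 (-0.85 to -0.58). Of 4 measured activity-responsive genes 2 were lower and 1, Egr1 at 0.31 (0.16 to 0.46), was higher, against 17.6% lower and 12.8% higher among all measured genes. Lists of 4 genes are too short to set apart from that background.

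The genes most like Arntl and Dbp over the 4 libraries were taken from the 9812 genes with at least 50 reads in each, by Euclidean distance of centred log2 counts per 1e6. Nearest to Arntl were Slc22a5 at 0.03, Zbtb43 at 0.04 and Rtn4 at 0.05, where the median gene lay at 1.32. Nearest to Dbp were Rhob at 0.11, Ankrd46 at 0.11 and Atp5s at 0.13, against a median of 2.93. Centring removes the mean level of a gene, so such nearness describes only a like relative pattern over these 4 libraries.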

How the data were processed

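The members and lists were chosen with earlier results of these data known. Trim Galore, TopHat2 on mm10, HTSeq and edgeR were the authors' tools for trimming, alignment, counting and comparison, as the series' design text states. The submitters' processing notes also list CASAVA 1.8, with no role. The strand setting and other versions: not given in the sources used here. The authors deposited read counts, RPKM, edgeR log2 fold changes and p-values. Lengths are called coding lengths because 99.8% of those of protein-coding genes are multiples of 3.

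Log2 ratios used counts scaled by TMM (edgeR 4.0.16, R 4.3.3) and a prior count of 2. Their 95% intervals are exact conditional (Clopper-Pearson), and those of levels are Poisson. Both hold no more than counting error, because each group had 1 library. Reads are also not independent molecules, which these intervals do not allow for. A gene was measured with at least 50 reads in 1 library of the pair. Called means 1.5-fold, or 1.2-fold as the second rule, with an interval that excludes 0. The functions were tested on simulated counts. GC came from GENCODE M21, whose identifiers matched 21939 of 22328 genes. For the correction, genes were split by 10 length classes and 5 GC classes, and the median log2 ratio of a gene's joint class was taken off. Ciart and Noct appear in the tables under the older symbols Gm129 and Ccrn4l. The wider list was shortened after its values were seen, because 2 of its genes are not reported here. Named genes are the 10 members, wider-list genes past 1.5-fold or else the 4 farthest from 0, the 3 nearest to Arntl and to Dbp (predicted genes left out), overlapping genes and the marker lists. Python 3.11.15 and scipy 1.17.1 were used.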

Additional observations from a re-analysis of the deposited data

How the results depend on the processing

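Each group held 1 library, so no replicate could be left out. No paired analysis was possible because each group held 1 library, which leaves no pairs to compare. The count of clock genes past 1.5-fold was 0 in both comparisons with library totals in place of TMM, with size factors from DESeq2 1.42.0, with a prior count of 0.25 or of 10, with a minimum of 10 or of 200 reads, under the correction for length and GC and, in HT22 cells, removal of the shared hippocampus level. With the 1.2-fold rule it was 2 in hippocampus and 3 in HT22 cells. Those 2 and 3 genes were the same under the other alternatives, except that the correction for length and GC left 0 in hippocampus and put Per2 in place of Arntl in HT22 cells. Another minimum of reads cannot change a gene's own ratio, and removal of the shared hippocampus level takes off few reads by its definition. Of 110 recomputed ratios of single genes under the other settings 106 stayed inside the counting interval of the value reported. The other 4, all under that correction, were Clock at 0.21 and Nr1d2 at -0.10 in hippocampus, and Per1 at -0.07 and Nr1d2 at 0.01 in HT22 cells. Scaling with DESeq2 or total counts moved the median of all genes by at most 0.01 in size. The count of 8 genes higher in hippocampus than in HT22 cells was also 8 with TMM-scaled counts.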

Other observations

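Temperature-responsive genes were followed beside the clock because some of them have daily rhythms in rodents. Of the 5 in hippocampus none passed 1.2-fold with an interval that excluded 0, against 13% of all measured genes. Cirbp, a cold-induced RNA-binding protein that is known to act on Clock messages, had 2349 reads in F1m-GCS and 2847 in F1m-CON, a log2 ratio of -0.22 (-0.30 to -0.14). Rbm3, a related cold-induced gene, had 0.04 (-0.12 to 0.21), and the heat-shock gene Hsph1 had 0.06 (0.02 to 0.10). The heat-shock genes Hspa1a, at 0.27 (-0.05 to 0.59), and Hspa1b, at 0.20 (-0.02 to 0.43), had larger ratios with intervals that held 0. Of the 5 genes 4 thus lay above 0 and 1, Cirbp, below it. In HT22 cells Rbm3, at -0.28 (-0.43 to -0.13), and the heat-shock gene Hspa1b, at -0.46 (-0.62 to -0.29), were the 2 of 5 past 1.2-fold, both lower in SUP, against 17.6% of all measured genes lower by that much. Of the 5 genes 4 lay below 0 in HT22 cells and 1, Hsph1, lay above it, at 0.19 (0.11 to 0.28). Hspa1b has a near-identical copy, Hspa1a, so the values of both are uncertain.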
